A study of Mus musculus with 6 samples.

Results

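The CAP superfamily genes described here are Crisp1, Crisp2, Crisp3, Crispld1, Crispld2, Glipr1, Glipr2 and Pi16, 8 of the 53735 genes in the deposited table, chosen by symbol. All 8 were in the table, 7 had reads in at least 1 library, and the same 7 passed the minimum of a mean of 10 normalized counts over the libraries. The family was chosen because its members had been seen to differ in opposite directions between liver and bone marrow. The values of that comparison are therefore given as a description, and calls among the members, which the choice made likely, support nothing about them. Transcripts were measured by RNA sequencing in leukemia stem cells, leukemia cells able to start the disease again, taken from liver (3 libraries) and from bone marrow (3 libraries) of untreated C57 mice labelled male. Both groups came from mice 13 days after transplantation of leukemia cells, and the labels name neither the driver of the leukemia nor the markers used for isolation. The labels number the 3 libraries of each tissue as technical replicates, with no word on separate animals. An SD, SE or p-value therefore covers the spread between libraries alone. That spread is not only technical, since replicates 1 and 2 of both tissues differed in sex-linked transcripts, given below. Whether it reflects separate animals is not known.

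CAP proteins share a cysteine-bonded fold named after cysteine-rich secretory proteins, insect antigen 5 and plant pathogenesis-related 1 proteins. Most carry a signal peptide and are secreted, and the CRISP subfamily adds a cysteine-rich tail that in some members acts on ion channels. CRISP genes are best known from the male reproductive tract and the salivary gland. In blood, CRISP3 protein is known from human neutrophil granules.

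Depth ran from 9.73 to 13.8 M reads in liver and from 15.4 to 18.5 M in bone marrow, and a single read came to 0.988 to 1.42 normalized counts in liver and 0.744 to 0.898 in bone marrow. Some libraries went against their label of male. Xist, the RNA that coats a silenced X chromosome, measured 6229, 1.42 and 2425 normalized counts in replicates 1, 2 and 3 of liver, against 4860.0, 4.28 and 2486 in those of bone marrow. The sum of 4 Y-linked genes was 0, 2675 and 1634 in liver and 145, 2987 and 1553 in bone marrow. Replicate 3 lay between replicates 1 and 2 in 50.8% of tested genes in liver and 43.6% in bone marrow, and whether it is independent of them was not tested. Fold changes are therefore also given without both replicate 3 libraries. All 8 listed markers of stem and progenitor cells were detected, and none passed the limma test between tissues given below. Their sum was 21641 to 24327 normalized counts in liver and 26109 to 26762 in bone marrow, with Gata2 the largest part. Of the 8, Kit, the receptor of stem cell factor, had 647 to 658 in liver and 419 to 654 in bone marrow. The homeobox gene Hoxa9 had 2480.3 to 2841 in liver and 2210 to 2438 in bone marrow. Both averaged higher in liver, where the sum was lower.

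The promoters of Crisp1 and Crisp3, the members lower in liver in every library, are shown first because they are near copies of each other. Each runs from 250 bases before to 50 bases after the RefSeq start on GRCm38.p6, on the minus strand, and capitals mark the bases at which they differ. The Crisp1 promoter lies at chr17:40319158-40319457 and the Crisp3 promoter at chr17:40242239-40242538.
Crisp1: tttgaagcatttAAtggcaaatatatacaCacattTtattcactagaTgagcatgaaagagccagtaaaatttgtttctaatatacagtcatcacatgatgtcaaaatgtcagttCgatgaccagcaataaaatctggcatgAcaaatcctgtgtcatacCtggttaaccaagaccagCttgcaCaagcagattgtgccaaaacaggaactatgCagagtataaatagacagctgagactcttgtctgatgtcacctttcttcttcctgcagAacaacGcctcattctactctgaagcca
Crisp3: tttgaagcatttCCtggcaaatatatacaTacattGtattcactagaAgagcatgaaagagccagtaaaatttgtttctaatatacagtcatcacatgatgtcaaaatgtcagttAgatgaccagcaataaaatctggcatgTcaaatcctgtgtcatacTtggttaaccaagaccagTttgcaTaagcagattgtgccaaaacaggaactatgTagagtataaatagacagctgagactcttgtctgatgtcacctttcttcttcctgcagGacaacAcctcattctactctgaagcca
Compared start to start without gaps, 287 of the 300 bases were identical (95.7%), and the longest stretch without a difference was 67 bases. Among the 6 member promoters in the RefSeq table, the other 14 pairs had 18.7% to 29.0% of bases identical in the same comparison. Of the 13 differences, 11 lay before the start and 2 from the start on.

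Letters known as binding motifs of blood-cell factors were searched on both strands. Crisp1 and Crisp3 each held 1 match to TTGCNNAA, a C/EBP motif, beginning 71 bases before the start, and 1 to the E-box CAGCTG, beginning 21 bases before it. The C/EBP match differed between them by C6T, counted from 1 at its first base with Crisp1 first. A TTGCNNAA match was held by 10.8% of 27025 RefSeq promoters of this length, and CAGCTG or CACCTG by 32.6%. Neither promoter held the GATA letters AGATAA, the STAT letters TTCNNNGAA, the PU.1 letters GAGGAA or the RUNX letters TGTGGT, which were present in 11.4%, 8.47%, 28.3% and 16.9% of promoters.

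The promoters of Crispld2 (chr8:119992188-119992487, plus strand) and Pi16 (chr17:29318632-29318931, plus strand) are shown because these were the members higher in liver in every library. Capitals mark motif matches.
Crispld2: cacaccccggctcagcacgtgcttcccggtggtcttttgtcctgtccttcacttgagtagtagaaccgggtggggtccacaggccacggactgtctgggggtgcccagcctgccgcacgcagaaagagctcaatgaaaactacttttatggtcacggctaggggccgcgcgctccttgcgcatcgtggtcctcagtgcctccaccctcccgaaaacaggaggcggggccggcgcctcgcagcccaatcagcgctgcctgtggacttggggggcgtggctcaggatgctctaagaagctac
Pi16: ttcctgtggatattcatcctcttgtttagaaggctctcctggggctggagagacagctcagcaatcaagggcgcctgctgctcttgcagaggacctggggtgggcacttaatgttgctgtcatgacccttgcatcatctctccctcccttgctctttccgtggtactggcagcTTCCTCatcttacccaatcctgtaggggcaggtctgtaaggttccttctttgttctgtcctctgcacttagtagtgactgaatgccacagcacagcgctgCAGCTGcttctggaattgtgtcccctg
Pi16 held 1 match to the PU.1 letters on the opposite strand and 1 E-box, and Crispld2 held no match to any of the 6 motifs. In the other member promoters Glipr2 held 2 E-box matches and Crisp2 none of the motifs.

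The family did not move as a unit. Crisp1 and Crisp3 stood lower in liver, Crispld2 and Pi16 stood higher, and in Crisp2, Glipr1 and Glipr2 the tissues overlapped. Over all genes tested with limma at a Benjamini-Hochberg adjusted p under 0.05, 4 of the 7 members were called in either direction, against 1.01% of 14298 genes. Of these, 2 were higher in liver, against 0.420% of genes, and 2 were lower, against 0.594%. The tissues did not overlap in 4 of the 7, against 22.3% of all genes tested. Nothing is read from these shares, since the contrast chose the members. The median log2 fold change of the 7 was -0.31, beside -0.01 over all genes tested. With bone marrow replicate 1, 2 or 3 left out, the called members numbered 1, beside 11, 17 or 6 of all genes tested. With liver replicate 1, 2 or 3 left out they numbered 3, 2 or 1, beside 433, 86 or 8. By limma without both replicate 3 libraries they numbered 0, beside 2 of all genes tested. There 4 members were at an unadjusted p under 0.05, a threshold passed by 806 of all genes tested (5.64%).

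**Figure D1:**
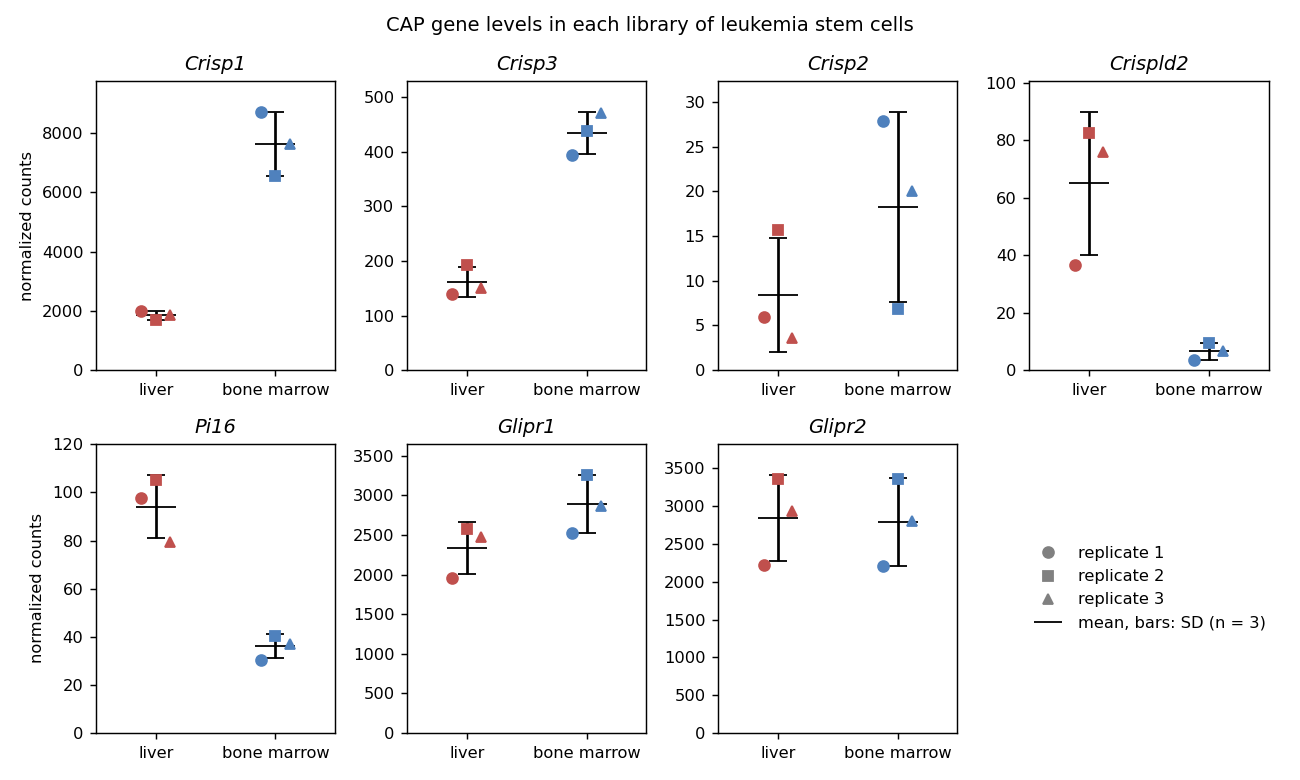
Normalized counts (vertical axes, each starting at 0) of the 7 detected CAP genes in liver and bone marrow libraries, with points for replicates and bars for the mean and SD (n = 3 each). Crisp1 and Crisp3 sit lower in all 3 liver libraries, Crispld2 and Pi16 sit higher, and the tissues overlap in Crisp2, Glipr1 and Glipr2.

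Crisp1 encodes a secreted protein that coats sperm in the epididymis of rodents. It spans bases 40293758 to 40319207 of chromosome 17, minus strand (GENCODE M21, GRCm38), with exons that overlap no other annotated gene. It had 1992, 1697 and 1848 normalized counts in liver replicates 1, 2 and 3, against 8709.9, 6540.3 and 7615 in bone marrow. The lowest bone marrow library stood far above the highest liver library. Liver averaged 1846 ± 147 and bone marrow 7622 ± 1085 (SD, n = 3 each), which is a log2 fold change of -2.04 ± 0.11 (SE), from 4745 reads in liver and 27581 in bone marrow. Of all genes tested, 52 had a fold change at or below that of Crisp1. Leaving out 1 library at a time gave -2.14 to -1.94, and leaving out both replicate 3 libraries gave -2.04. As these are bulk samples, fewer cells that carry a transcript and less of it per cell cannot be told apart.

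Crisp3 lies next to Crisp1 on chromosome 17, from 40221777 to 40242288 on the same strand, and is known in the mouse from salivary gland and pre-B cells. Its libraries held 140.3, 193 and 151 normalized counts in liver, against 393, 438 and 471 in bone marrow. All liver libraries again lay below all bone marrow libraries, with a smaller gap than for Crisp1. The means were 161 ± 28.1 in liver and 434 ± 38.8 in bone marrow (SD, n = 3 each), and the log2 fold change was -1.43 ± 0.15 (SE), with -1.57 to -1.34 when 1 library was left out and -1.33 without both replicate 3 libraries. The transcripts of Crisp1 and Crisp3 were alike in 91.1% of 1397 aligned bases, and 33 of their windows of 50 bases were shared, 2.41% of either gene. No source used here gives the read length or says how reads with several matches were counted, so a part of the Crisp3 values could come from Crisp1 reads, and both are uncertain to that extent. Of 9 B lineage markers 7 were detected, with Ms4a1 and Rag1 at 0 reads, and their sum was 19.8 to 64.0 normalized counts in liver and 46.1 to 69.1 in bone marrow.

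The ratio of Crisp1 to Crisp3, per kb of exon, differed between the libraries. It was 14.2, 8.79 and 12.3 in liver replicates 1, 2 and 3, against 22.2, 14.96 and 16.2 in bone marrow. Every liver ratio was lower than every bone marrow ratio, though 14.2 in liver replicate 1 and 14.96 in bone marrow replicate 2 were close. The liver level of Crisp3 rests on 403 reads. The ratio follows from the contrast that chose the members, so nothing is read from it. The part of Crisp1 reads in the Crisp3 values was not tested. In both tissues Crisp1 was higher and Crisp3 lower in replicate 1 than in replicate 2.

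Crisp2 encodes a testis protein of the sperm acrosome and tail that can act on calcium channels. Its place on chromosome 17 is farther along, at 40764020 to 40807003, minus strand. It held 5.93, 15.6 and 3.61 normalized counts in liver, against 27.8, 6.85 and 20.1 in bone marrow, from 20 and 66 reads. The tissues overlapped, with liver replicate 2 above bone marrow replicate 2. The log2 fold change of -1.06 ± 0.69 (SE) ranged from -1.61 to -0.65 when 1 library was left out and was -0.49 without both replicate 3 libraries. With so few reads, a difference of this size was within the spread between libraries.

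Most genes around this cluster had few or no reads. Between Crisp1 and Crisp2 lie exocrine gland-secreted peptide genes such as Esp1, Esp3, Esp4, Esp6 and Esp8, each with 0 reads in all libraries. On the side of Crisp3, Esp38 had 0 reads and the testis glycolysis gene Pgk2 at most 7.11 normalized counts. On the side of Crisp2 the nearest protein-coding gene is Rhag, which encodes an ammonia channel of the red cell membrane. Rhag had 400.1, 149 and 234 normalized counts in liver, against 739, 716 and 728 in bone marrow, a log2 fold change of -1.59 with a limma adjusted p of 0.070, so it did not pass the test although the tissues did not overlap. Beyond Rhag, 9130008F23Rik averaged 444 in liver and 351 in bone marrow (adjusted p = 0.53, limma) and Glyatl3 had at most 1.42. Summed levels of 7 erythroid markers, all of them detected and tested, were 4966 to 5387 in liver and 7596 to 9046 in bone marrow. Limma called none of the 7 in either direction, and their part in the Crisp values was not tested.

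Crispld2 encodes a secreted CAP protein with LCCL domains that binds bacterial lipopolysaccharide and is known from lung development. It lies on chromosome 8 from 119992438 to 120052793 on the plus strand. Liver libraries held 36.6, 82.4 and 75.9 normalized counts, against 3.59, 9.42 and 6.69 in bone marrow. Each liver library was several times above the highest bone marrow library, and replicate 1 was the lowest of both tissues. Liver averaged 65.0 ± 24.8 and bone marrow 6.57 ± 2.92 (SD, n = 3 each), a ratio of 9.89 and a log2 fold change of 3.12 ± 0.48 (SE). The bone marrow level rests on 24 reads and the liver level on 158. Of all genes tested, 12, Crispld2 included, had a fold change this high or higher. The change was 2.80 to 3.48 when 1 library was left out, 3.02 without both replicate 3 libraries and 2.13 with a pseudocount of 10.

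Neutrophil marker levels were set beside Crispld2. Of 12 mature neutrophil markers 11 were detected, with Ly6g, a defining surface marker, at 0 reads in every library. Their summed level was 185, 903 and 501 normalized counts in liver replicates 1, 2 and 3, against 90.7, 142 and 122 in bone marrow. Of the 7 tested, limma called 1 higher in liver, the chemokine receptor gene Cxcr2. The 5 genes of a primary granule list in the table, all detected, summed to 2143, 10494 and 7355 in liver and 1392, 2936 and 2253 in bone marrow. Ms4a3, which encodes a membrane protein, was the largest part of this sum in each library. It had 1372, 5373 and 4000 in liver and 1061, 2394 and 1797 in bone marrow. Of the 5 listed genes, limma called Mpo, the myeloperoxidase gene, higher in liver. Both sums, like Crispld2, were lowest in replicate 1 and highest in replicate 2 of each tissue, an order held by the sums of 6 of the 12 marker lists, those of monocytes and macrophages, hepatocytes, endothelial cells, and basophils and mast cells included. The part of these cells in the Crispld2 values was not tested.

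Crispld1, the gene most like Crispld2 in domain layout, had 0 reads in all 6 libraries. A count of 0 allows up to 3 reads in a library, or 2.96 to 4.26 normalized counts in liver and 2.23 to 2.69 in bone marrow, where intervals of this kind cover counting error only. The gene lies on chromosome 1 from 17727045 to 17766344.

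Pi16 encodes a membrane-anchored CAP protein known from fibroblasts, from regulatory T cells in humans and as a brake on heart muscle growth in mice. It lies on chromosome 17 from 29317680 to 29330593 on the plus strand, far from the Crisp cluster. It had 97.8, 105 and 79.5 normalized counts in liver, against 30.5, 40.2 and 37.2 in bone marrow. The tissues did not overlap, and liver replicate 3 was the lowest of its group. Liver averaged 94.2 ± 13.2 and bone marrow 36.0 ± 4.97 (SD, n = 3 each), which is a log2 fold change of 1.36 ± 0.23 (SE), from 239 reads in liver and 131 in bone marrow. It was 1.25 to 1.48 with 1 library left out and 1.51 without both replicate 3 libraries. Of the exon bases of Pi16, 222 (3.49%) are shared with an opposite-strand gene model, and the library chemistry does not mark strand.

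Markers of cells known for Pi16, and of liver cells, were absent in part. Of 10 fibroblast and stellate cell markers 7 were detected, with the collagen gene Col3a1, the receptor gene Pdgfra and the retinol enzyme gene Lrat at 0 reads. The summed level of the 10, nearly all of it Pdgfrb and Col1a2, was 284 to 417 normalized counts in liver and 415 to 842 in bone marrow. Of 6 T and NK cell markers 3 were detected, with Cd3e, Cd4 and Ncr1 at 0. Their sum, nearly all of it Klrb1c, was 124 to 210.4 in liver and 196 to 216 in bone marrow. Of 8 hepatocyte markers 3 were detected, with Alb, Ttr, Serpina1a, Fgb and Tat at 0 reads in every library, and their sum, nearly all of it Apoa1 and Hnf4a, was 2524 to 4145 in liver and 2881 to 6361 in bone marrow.

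Glipr1 and Glipr2 were abundant members whose levels overlapped between the tissues. Glipr1, first described in glioma and known as a p53 target, had 1957, 2581 and 2472 normalized counts in liver, against 2530.1, 3262 and 2873 in bone marrow. The lowest and the highest library of liver each lay below those of bone marrow, with overlap between. Liver averaged 2337 ± 333 and bone marrow 2889 ± 366 (SD, n = 3 each), and the log2 fold change was -0.31 ± 0.13 (SE), with -0.40 to -0.19 when 1 library was left out and -0.35 without both replicate 3 libraries. Glipr1 lies on chromosome 10 from 111985448 to 112002631 and shares 352 exon bases (22.8%) with Krr1 on the opposite strand, a gene of small ribosomal subunit assembly. Krr1 averaged 1599 normalized counts in liver and 1772 in bone marrow, and reads from the shared bases cannot be told apart.

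Glipr2 encodes a CAP protein without a signal peptide that sits on the cytosolic face of the Golgi and binds the autophagy protein Beclin 1. It lies on chromosome 4 from 43957401 to 43979118. Its libraries held 2227, 3362 and 2938 normalized counts in liver, against 2202, 3362 and 2806 in bone marrow. Liver averaged 2842 ± 573 and bone marrow 2790.1 ± 580 (SD, n = 3 each). The tissues covered the same range, and the log2 fold change was 0.03 ± 0.19 (SE), or 0.01 without both replicate 3 libraries.

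Glipr2 differed between replicate numbers, a comparison other than the contrast that chose the members. Like the other tests, it was chosen with earlier results of these data known. The labels do not say that a number marks the same source in both tissues, and the test holds only if it does. Over all genes tested, deviations from the tissue means correlated between tissues at 0.44, 0.40 and 0.06 for replicates 1, 2 and 3. In a limma fit with tissue and replicate number as terms, the F test of the number gave an adjusted p of 0.016 for Glipr2, 1 of the 7 members called, beside 1.51% of all genes tested. Replicate 2 was 1.51 times replicate 1 in liver and 1.53 times in bone marrow. For Glipr1 these ratios were 1.32 and 1.29 with an adjusted p of 0.090, and for Crisp1 0.852 and 0.751 with an adjusted p of 0.13, so neither passed. With no filter on low values Glipr1 did, at an adjusted p of 0.042. Crispld2 had ratios of 2.26 and 2.62 with an adjusted p of 0.45. At an unadjusted p under 0.05 the F test gave 3 of the 7 members and 1999 of the 14298 genes tested. In 6 of the 7 members replicate 2 lay on the same side of replicate 1 in both tissues, beside 61.1% of all genes tested, with Crisp2 the exception. The replicate numbers also differed in the sex-linked transcripts above, and the part of that difference in the Glipr2 values was not tested.

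**Figure D2:**
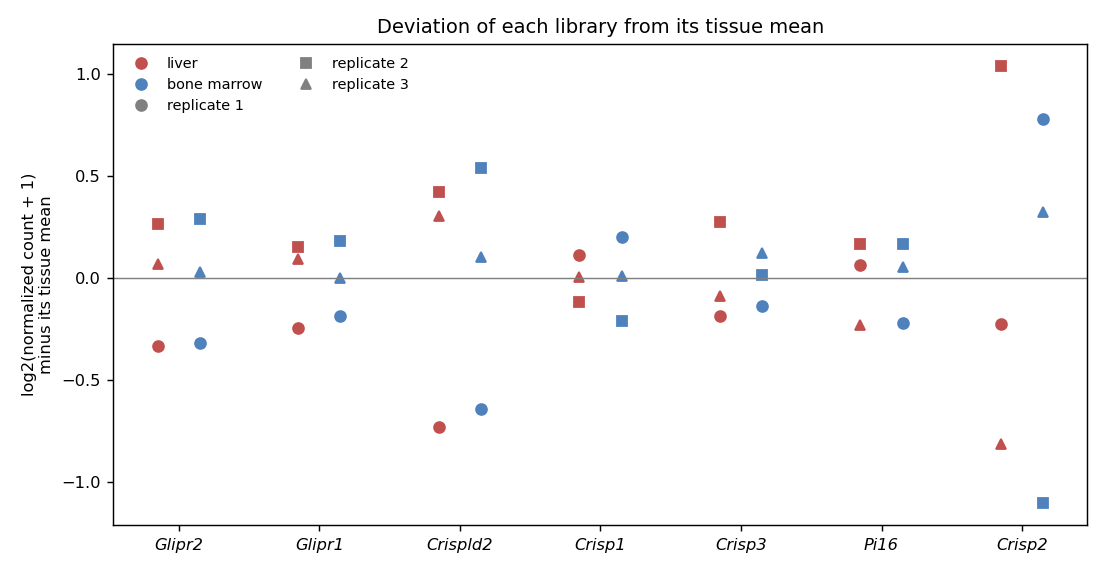
Deviation of each library from its tissue mean in log2(normalized count + 1) (vertical axis) for the 7 detected CAP genes, with liver points left of bone marrow points and a symbol for each replicate. Glipr2, Glipr1 and Crispld2 are lowest in replicate 1 and highest in replicate 2 in both tissues, Crisp1 is the reverse, and Crisp2 shows no shared order.

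Levels of different genes were compared per kb of exon, using GENCODE M21 exon lengths, which may differ from those counted. In liver the order was Glipr1 (1514 normalized counts per kb), Crisp1 (1304) and Glipr2 (1225), then Crisp3 (114), Pi16 (14.8), Crispld2 (13.6) and Crisp2 (2.98). In bone marrow it was Crisp1 (5383), Glipr1 (1872), Glipr2 (1203) and Crisp3 (306), then Crisp2 (6.48), Pi16 (5.65) and Crispld2 (1.37). The first 3 in liver overlapped one another, as did Pi16 and Crispld2, while in bone marrow the overlap was between Crisp2 and Pi16, and all other neighbours in either order were apart in every library. Crisp1 was thus the leading member in bone marrow and stood among the GLIPR genes in liver.

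**Figure D3:**
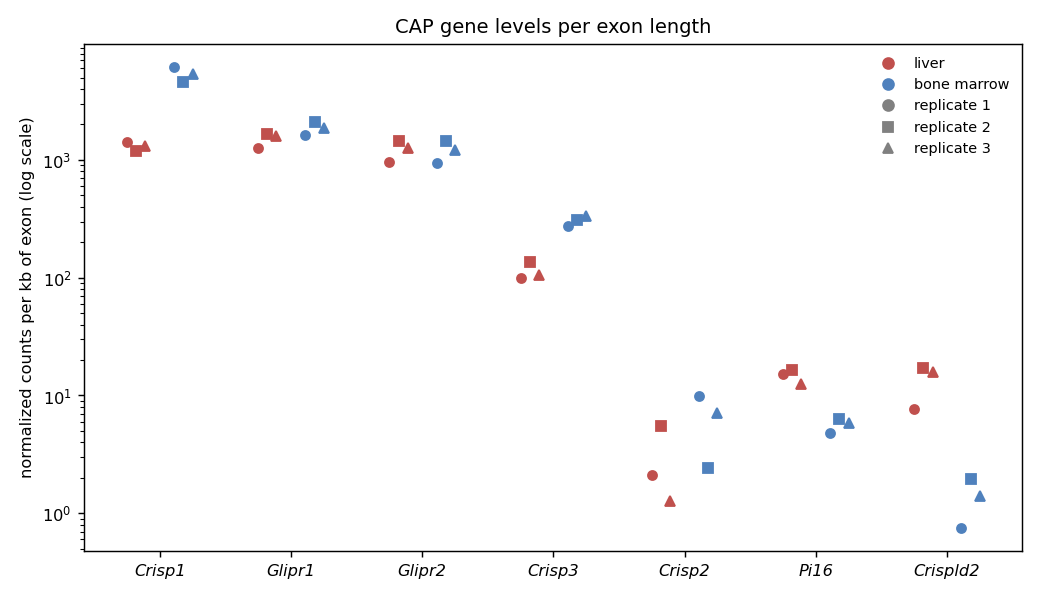
Normalized counts per kb of exon (log axis) for the 7 detected CAP genes, with liver points left of bone marrow points and a symbol for each replicate. Crisp1 averages 1304 in liver, inside the range of Glipr1 and Glipr2, against 5383 in bone marrow, above both.

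Summed per kb over the 8 members, the family stood at 3759, 4496 and 4310 normalized counts per kb in liver and at 9033, 8502 and 8796 in bone marrow. Crisp1 made up 37.4%, 26.7% and 30.3% of that sum in liver, against 68.1%, 54.3% and 61.1% in bone marrow. Glipr1 and Glipr2 together made up 59.3%, 69.4% and 66.6% in liver and 28.7%, 41.9% and 34.9% in bone marrow. On this scale the difference between tissues was larger for Crisp1 than for any other member.

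**Figure D4:**
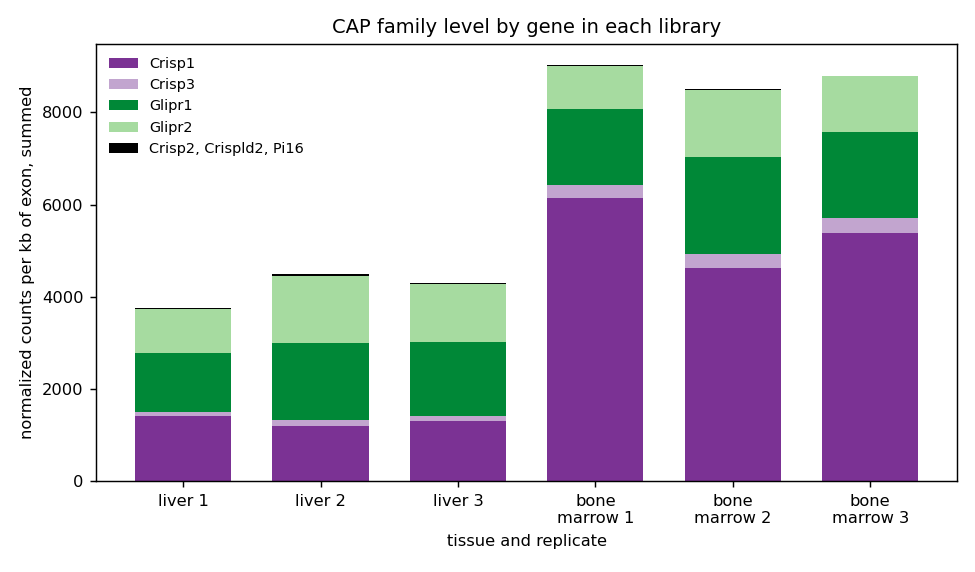
Stacked normalized counts per kb of exon of the CAP genes (vertical axis from 0) in each liver and bone marrow library. The Crisp1 part is 26.7% to 37.4% of the stack in liver, against 54.3% to 68.1% in bone marrow. The Glipr1 part and the Glipr2 part each overlap in height between the tissues.

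The rest of the mouse family was nearly silent. Of 7 other CAP genes, 6 were in the table and Glipr1l3 was not analysed here. The peptidase inhibitor gene Pi15, the epididymal gene Crisp4, and R3hdml, Clec18a and Glipr1l2 had 0 reads in all libraries. Glipr1l1, a testis gene related to Glipr1, had 16.8, 0 and 8.43 normalized counts in liver, against 19.8, 5.99 and 10.4 in bone marrow. It was the 1 gene of the 6 that could be tested and was not called, with a limma adjusted p of 0.68. The count of called genes was 0 also by edgeR, by DESeq2 and at an unadjusted p under 0.05. In both tissues replicate 1 was its highest library and replicate 2 its lowest.

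Genes with the most similar pattern over the 6 libraries were sought among those averaging 50 or more normalized counts. The likeness is Pearson's r of log2(normalized count + 1), given as a description: the libraries fall into tissues and replicate numbers that all genes share, and for each member between 16 and 185 genes reached an r of 0.95. Crisp1 was closest to Rps9 (r = 0.998) and Eef1a1 (r = 0.997), genes of the ribosome and of translation elongation, and to Acsf2 (r = 0.994). Their own differences were far smaller, with Rps9 at 12667 normalized counts in liver and 14552 in bone marrow. Crisp3 was closest to the adaptor gene Lat2, Rpl10 and Inpp4b, each with r = 0.996. Crispld2, from 24 reads in bone marrow, was closest to Rab8a (r = 0.996), Cct8 (r = 0.995) and Adgrg3 (r = 0.992). Pi16 was closest to Mybl2 (r = 0.993), Snrpa1 (r = 0.992) and Cops3 (r = 0.991).

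Glipr1 was closest to Ly6a, which encodes the stem cell antigen Sca-1 (r = 0.996), and to Tgtp1 and Gimap8 (both r = 0.996). Ly6a had 713, 1633 and 1335 normalized counts in liver, against 1516, 2826 and 2164 in bone marrow, so it shared with Glipr1 both the lower liver level and the low replicate 1. Glipr2 was closest to Prkcdbp (r = 0.996), Smndc1 and Cfp (both r = 0.995), the last encoding the complement factor properdin. Cfp had 162, 497 and 337 normalized counts in liver, against 181, 498 and 317 in bone marrow, the Glipr2 pattern of equal tissues and unequal replicates. Crisp2, from 86 reads in all, was closest to Olfr77 (r = 0.994), Pkp3 and Scaf4 (both r = 0.982).

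Deviations from the tissue means, which leave the difference between tissues out, gave other genes. Glipr2 then lay closest to the basophil protease gene Mcpt8, Acot7 and the homeobox gene Hoxb6, each with r = 0.999. Mcpt8 had 933, 2476 and 1733 normalized counts in liver, against 512, 1353 and 912 in bone marrow. Over the 12 basophil and mast cell markers, all detected, the sum was 18922, 28682 and 24453 in liver and 27924, 33891 and 30810.0 in bone marrow, with the replicate order of Glipr2 that, as given above, 6 of the 12 lists shared. Gata2, a transcription factor gene also on the stem and progenitor list, made up 43.3% to 54.7% of that sum. Of the 11 tested, the protease gene Prss34 was called higher and Tpsb2 and Il1rl1 lower in liver. The part of these cells in the Glipr2 values was not tested. Crispld2, whose bone marrow values rest on 24 reads, lay closest to Anpep (r = 0.9997), Clec2i (r = 0.9996) and Capza3 (r = 0.999). Glipr1 lay closest to Xlr4a (r = 0.9997), Pecam1 (r = 0.998) and Gimap1 (r = 0.997), and Crisp1 to Vps8 (r = 0.998), Acss2os and Fam117b (both r = 0.996). Crisp3 lay closest to Top3a (r = 0.999), Rnaset2a (r = 0.998) and Rpl7l1 (r = 0.997), Pi16 to C1d (r = 0.998), Tmem5 and Myh9 (both r = 0.997), and Crisp2 to Trip4, Ss18l1 (both r = 0.995) and Olfr77 (r = 0.992). Between 43 and 412 genes reached an r of 0.95 for each member.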

How the data were processed

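Libraries were prepared with SMARTer cDNA synthesis and Nextera XT, per the labels' protocols, which leaves strand unmarked. The deposited signal is the read count per gene that the authors divided by 1 DESeq2 size factor per library, per the name of the deposited table. The submitters' processing notes name STAR 2.6.0c, Trimmomatic 0.36, bcl2fastq 2.19.0, R 3.4.1 and DESeq2 1.16.1. No source used here gives the read counter, build or annotation. All values (100%) were whole multiples of 1 read within a tolerance of 0.01, so reads were recovered. No pair of libraries of a tissue agreed within sampling noise (chi-square per degree of freedom 6.50 to 25.9 over genes with at least 10 reads), and all 6 were kept.

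Genes with a mean of at least 10 were fitted as log2(normalized count + 1) with limma 3.58.1 (R 4.3.3) with a variance trend and no term besides tissue. Tests were two-sided with Benjamini-Hochberg adjustment over 14298 genes. On this scale the change of low genes is understated. Alternatives used edgeR 4.0.16 and DESeq2 1.42.0 on recovered reads. Members, gene lists and tests were chosen with earlier results of these data known. Genes named besides the members are the other CAP genes, neighbours of the Crisp cluster, the 3 genes most like each member and marker genes at 0 or past the test. Kit, Hoxa9, Gata2, Ms4a3, Pdgfrb, Col1a2, Klrb1c, Apoa1 and Hnf4a, and the sex-linked genes, were picked with their values in view. Positions are those of GENCODE M21 (GRCm38) and promoters those of RefSeq (GRCm38.p6), matched by symbol for 8 and 6 of the 8 members. Figures were drawn with matplotlib 3.10.9.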

Additional observations from a re-analysis of the deposited data

How the results depend on the processing

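The directions of Crisp1, Crisp2, Crisp3, Crispld2, Glipr1 and Pi16 held under each alternative run, while that of Glipr2 changed sign in 3 of the 6 fits on 5 libraries. Calls rested on few libraries. The number of genes that differed between liver and bone marrow was 145, and 622 with DESeq2. It was 130 with a minimum mean of 50, 122 with no filter and 115 with thinning. Without both replicate 3 libraries it was 2, and when 1 library was left out 6 to 433. The number of called members was 4, and 2 of the 5 tested with a minimum mean of 50 (Crispld2 not tested, Pi16 at an adjusted p of 0.056), 3 with no filter (Pi16 at 0.075) and with thinning (Crispld2 at 0.075), 1 to 3 when 1 library was left out, and 0 by limma without both replicate 3 libraries, where 4 were at an unadjusted p under 0.05. With the replicate block 525 genes and 5 members were called, Glipr1 being the fifth (adjusted p = 0.037). Deviations from the tissue means correlated between same-numbered libraries at 0.44, 0.40 and 0.06. Between replicates 1 and 2 across tissues they correlated at -0.38 and -0.44, and liver replicate 3 correlated best with bone marrow replicate 2 (0.15). The sex-linked transcripts had the same order of replicate numbers in both tissues. The labels state no pairing, so the main fit had no replicate term and the block fit is given beside it. The F test of the replicate number called 216 genes, and 600 with no filter; under the alternatives its adjusted p was 0.0014 to 0.018 for Glipr2 and 0.042 to 0.096 for Glipr1. Leaving out both replicate 3 libraries and thinning to equal depth were added after seeing the data. The cause was not tested. Depth limits Crisp2 (20 reads in liver) and Crispld2 in bone marrow (24 reads).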
